A study of Mus musculus with 4 samples.

Results

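SLAM receptors and the other surface proteins by which stem cells are sorted were followed here as transcripts: Slamf1, Cd48, Cd244, Ly9, Procr, Cd34, Ly6a, Prom1, Esam and Tek. These 10 genes were taken by their symbols from the 20207 genes of the deposited tables, and all 10 were found. The cells were LSK cells, the fraction of fetal liver that is low in lineage antigens and carries Sca-1 and Kit, from E14.5 mouse embryos. One group was labelled Brpf1-null and the other wild-type, and each sample was a pool of about 10000 sorted cells from 4 embryos. The labels name neither the alleles behind the null label, nor a Cre driver, nor a strain. Brpf1 encodes a chromatin reader that holds MYST-family histone acetyltransferases in a complex. The labels list 2 pairs of samples, but the tables of both pairs held the same value for every gene, so each genotype was counted as 1 library (n = 1). No difference below has a replicate check, and p-values were not computed.

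Hematopoietic stem cells and the multipotent progenitors they give rise to share the LSK gate, and surface proteins tell them apart. In mice, stem cells carry CD150, the product of Slamf1, and lack CD48 and CD244, which appear as cells become progenitors. EPCR (Procr), ESAM (Esam) and TIE2 (Tek) also enrich for stem cells, whereas CD34, Sca-1 (Ly6a) and CD133 (Prom1) are found on fetal stem cells and progenitors alike. Transcript levels of a pool do not show which cells carry a protein: fewer cells of a type and less RNA per cell cannot be told apart in these values.

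Levels are RPKM, reads scaled by gene length and by library size. The annotation behind the lengths is unstated, so levels of different genes can be set side by side only roughly. The Brpf1-null library held about 22106025 reads and the wild-type library about 23509758, as recovered from the spacing of the low values. Each fold is followed by its 95% counting interval in brackets, which covers counting error only and takes reads as independent, which PCR copies are not. Brpf1 itself was at 2.15 RPKM in the Brpf1-null library, against 2.59 RPKM in the wild-type library, 1.20-fold lower (1.002 to 1.44). Reads summed over all exons cannot resolve a deleted part, so this value does not show loss of Brpf1. Genes whose 2 values averaged 1 RPKM or more were compared, 9380 in all, with 1 RPKM added to each value. By 1.5-fold or more, 1323 of them (14.1%) were higher in the Brpf1-null library and 884 (9.42%) were lower, 23.5% in either direction. The log2 change went with the GC content of the transcript over 9257 genes (Spearman rho = 0.29, a description across genes of these libraries).

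Against that background, 8 of the 10 marker genes averaged 1 RPKM or more, and Slamf1 and Prom1 did not. Of those 8, Ly9 and Cd34 were higher by 1.5-fold or more, Esam was lower by as much, and 5 lay within 1.5-fold. Each count is within 1 gene of what the background shares of 14.1% and 9.42% give for 8 genes, so nothing particular to the markers is read from the counts. Their median log2 change was −0.20, beside 0.04 over all 9380 genes. As plain ratios, the Brpf1-null library was the lower one for 6 of those 8 genes and the higher one for 2, beside 45.9% and 54.1% of the 9380, and it was also the lower one for Slamf1 and Prom1. Slamf1, whose ratio lay farthest from 1, was also among the least abundant.

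**Figure D1:**
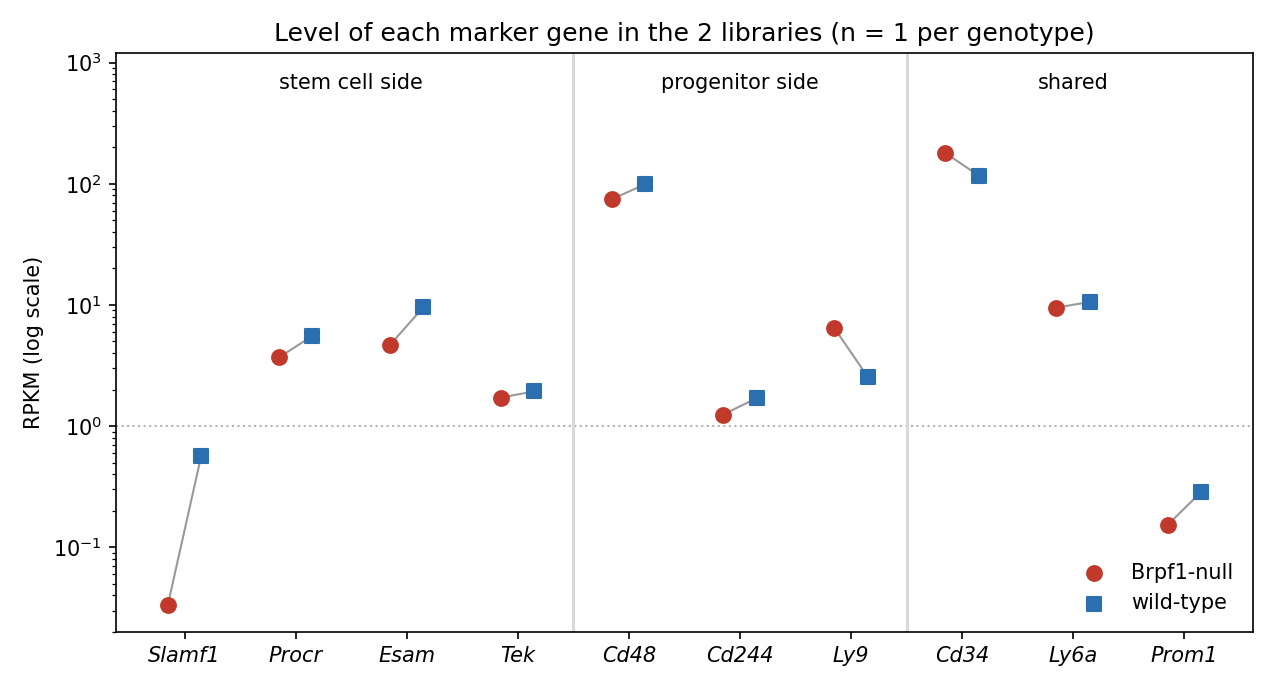
Level of each marker gene in RPKM on a log scale, with the Brpf1-null library as circles and the wild-type library as squares (n = 1 each); the dotted line marks 1 RPKM. Cd34 and Ly9 are the genes with the circle above the square, and Slamf1 has the widest gap, at 0.0335 RPKM in the Brpf1-null library and 0.566 RPKM in the wild-type library.

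The DNA before 3 of these genes is shown because the results turn on them: Slamf1 had the lowest ratio, Cd34 was the most abundant marker gene, and Cd48 was the most abundant SLAM receptor gene. Each run is the 249 bases ahead of the annotated start on the plus strand, from RefSeq's GRCm38.p6 table, which is a later build than the mm9 genome of the deposited values. Capitals mark exact matches, on either strand, to AGGAAG (an ETS-factor core) or TGTGGT (a RUNX core).
Slamf1, chr1:171766882-171767130: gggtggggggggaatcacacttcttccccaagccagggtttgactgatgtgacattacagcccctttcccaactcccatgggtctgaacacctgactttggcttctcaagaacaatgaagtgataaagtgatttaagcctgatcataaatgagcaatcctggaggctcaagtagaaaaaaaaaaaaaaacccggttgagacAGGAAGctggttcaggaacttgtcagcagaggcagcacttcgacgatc
Cd48, chr1:171681742-171681990: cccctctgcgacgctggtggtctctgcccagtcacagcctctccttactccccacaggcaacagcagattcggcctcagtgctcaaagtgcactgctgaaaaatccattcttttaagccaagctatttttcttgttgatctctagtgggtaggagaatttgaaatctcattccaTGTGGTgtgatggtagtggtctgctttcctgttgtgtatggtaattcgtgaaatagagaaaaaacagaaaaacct
Cd34, chr1:194938571-194938819: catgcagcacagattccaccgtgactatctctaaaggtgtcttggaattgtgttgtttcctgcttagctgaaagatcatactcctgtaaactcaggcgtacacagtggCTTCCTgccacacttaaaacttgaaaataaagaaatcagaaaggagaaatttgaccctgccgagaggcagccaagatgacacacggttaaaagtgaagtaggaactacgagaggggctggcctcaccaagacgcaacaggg
The Slamf1 run held 1 AGGAAG match, the Cd34 run held 1, on the minus strand, and the Cd48 run held 1 TGTGGT match. Entries were found for 7 of the 10 genes, with 2 starts for Prom1, and of these 8 windows 3 held AGGAAG and 2 held TGTGGT. Over 32851 windows of the same length, 29.4% held AGGAAG and 14.0% held TGTGGT. The GATA core GATAAG was in none of the 8 windows (0) and in 6.5% of all windows. The matches are letters only and say nothing of binding. Procr had the window richest in CpG among the 7 genes, with 13 CpG, against 3 for Slamf1, 4 for Cd48 and 6 for Cd34. Ly9, Ly6a and Esam are named only.

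Slamf1 encodes CD150, a receptor that binds itself on other cells and defines the stem cell end of the SLAM code. It was at 0.0335 RPKM in the Brpf1-null library, against 0.566 RPKM in the wild-type library. The spacing of the values resolves these into whole reads, 2 in the Brpf1-null and 36 in the wild-type library. The ratio was 16.9-fold lower (4.36 to 145), an interval that excludes 1 yet covers more than an order of magnitude. With 1 RPKM added the log2 change was −0.60, since a level this low is mostly the added unit. In both libraries Slamf1 lay under the level of nearly all 9380 genes, at percentile 0.0213 of them in the Brpf1-null and 0.394 in the wild-type library.

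Cd48 encodes a lipid-anchored ligand that binds CD244 and marks cells leaving the stem cell state. It was at 74.7 RPKM in the Brpf1-null library and 99.4 RPKM in the wild-type library, 1.33-fold lower (1.25 to 1.42). About 1741 reads in the Brpf1-null and 2464 reads in the wild-type library stood behind these values, so counting error is small, and the change was within 1.5-fold. Its log2 change of −0.41 was −0.21 with the trend on transcript GC content removed and −0.52 after centring of each library on its median. Its receptor gene Cd244 (2B4, listed today as Cd244a) was at 1.25 RPKM in the Brpf1-null and 1.70 RPKM in the wild-type library. That was 1.36-fold lower (1.06 to 1.78), so ligand and receptor were both lower, by similar ratios whose intervals overlap. Both genes belong to the progenitor end of the SLAM code, as Slamf1 belongs to the stem cell end, and all 3 were lower in the Brpf1-null library.

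Ly9 encodes CD229, a SLAM receptor used to subdivide stem cells and multipotent progenitors, with more of it on progenitors. It was at 6.45 RPKM in the Brpf1-null library, against 2.56 RPKM in the wild-type library, 2.52-fold higher (2.06 to 3.10), on about 327 reads in the Brpf1-null and 138 reads in the wild-type library. Its log2 change of 1.07 was the highest of the marker genes. Ly9 was the SLAM receptor gene among the 4 followed here that was higher in the Brpf1-null library.

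Because a ratio of genes within 1 library does not depend on the library's size, the SLAM genes were also read against each other. There were 0.448 RPKM of Slamf1 per 1000 RPKM of Cd48 in the Brpf1-null library, against 5.69 in the wild-type library, a ratio 12.7-fold lower. It rests on 2 Slamf1 reads in the Brpf1-null library, so it is no more precise than the fold of Slamf1 itself. Ly9 per Cd244 was 5.18 in the Brpf1-null and 1.504 in the wild-type library, 3.44-fold higher. Set against Cd48, Esam was 1.54-fold lower and Procr 1.13-fold lower in the Brpf1-null library, whereas Tek was 1.18-fold higher. The 4 stem cell side genes summed to 10.1 RPKM in the Brpf1-null and 17.6 RPKM in the wild-type library. The 3 progenitor side genes, nearly all of it Cd48, summed to 82.4 RPKM in the Brpf1-null and 103.7 RPKM in the wild-type library. Stem cell side per progenitor side was thus 0.123 in the Brpf1-null and 0.170 in the wild-type library, 1.38-fold lower. Esam was the largest part of the stem cell side sum, at 4.68 RPKM in the Brpf1-null and 9.56 RPKM in the wild-type library. The ratio of sums therefore depends most on Esam and Cd48 and is not an even balance of the 4 genes against the 3.

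Procr encodes the endothelial protein C receptor, which binds activated protein C and is among the most selective markers of mouse stem cells. It was at 3.68 RPKM in the Brpf1-null and 5.54 RPKM in the wild-type library, 1.505-fold lower (1.20 to 1.89). With 1 RPKM added the log2 change was −0.48, which lies within 1.5-fold, but after centring on the library medians it was −0.59, past that bound. Esam encodes an adhesion protein of endothelial junctions that stem cells and megakaryocytes also carry. It was at 4.68 RPKM in the Brpf1-null and 9.56 RPKM in the wild-type library, 2.04-fold lower (1.72 to 2.43), with some 193 reads in the Brpf1-null and 419 reads in the wild-type library. Its log2 change of −0.90 was the lowest of the 8 genes above the filter. Tek encodes TIE2, the angiopoietin receptor linked to stem cell quiescence. It was at 1.72 RPKM in the Brpf1-null and 1.94 RPKM in the wild-type library, 1.12-fold lower (0.915 to 1.39), and at this depth that difference was not detectable. All 4 stem cell side genes were lower as ratios, with intervals that excluded 1 for Slamf1, Procr and Esam and included it for Tek. Slamf1 is under the filter. Among all compared genes 45.9% were lower as ratios, and 32.3% of those with a read estimate had an interval below 1. Cd48 and Cd244, on the progenitor side, also had intervals below 1.

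**Figure D2:**
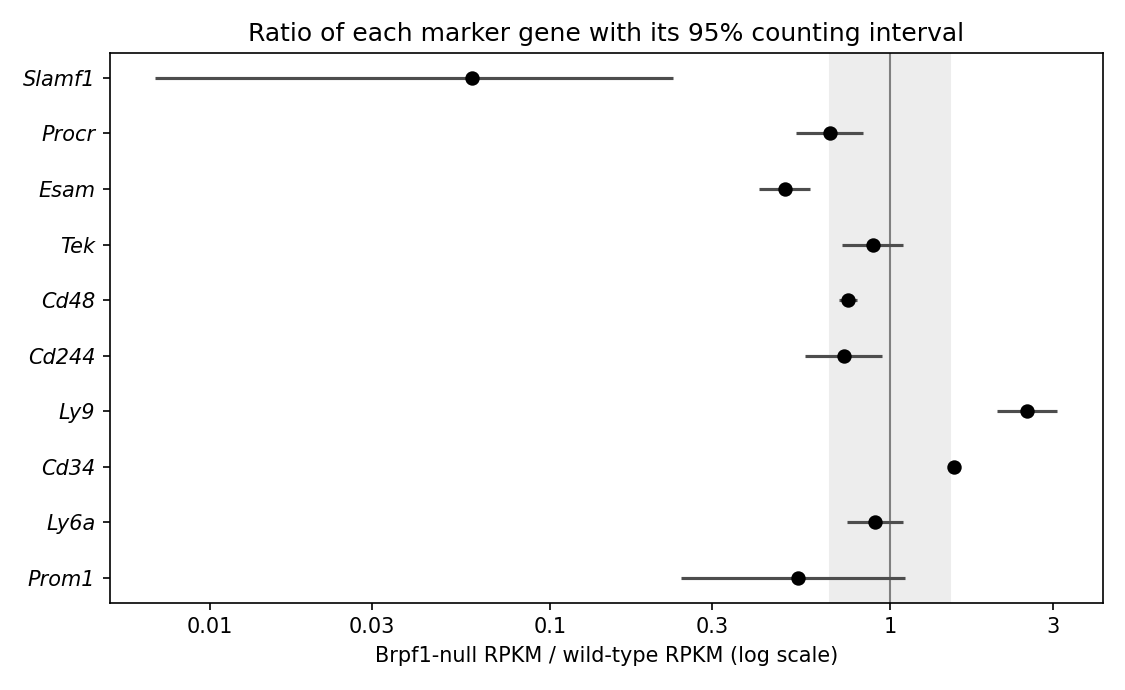
Brpf1-null over wild-type RPKM of each marker gene on a log scale, with its 95% counting interval as a line; the grey band spans 1.5-fold either way. Slamf1 lies far below 1 with a wide line, Esam lies below the band, Ly9 lies above it, and the lines of Tek, Ly6a and Prom1 cross 1.

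Cd34 encodes a sialomucin of stem and progenitor cells and of endothelium. It was at 179 RPKM in the Brpf1-null library, against 117 RPKM in the wild-type library, 1.54-fold higher (1.49 to 1.58). Its log2 change of 0.61 was 0.50, within 1.5-fold, once each library was centred on its median. It was the most abundant marker gene in both libraries, and with Cd48 it made up 90.2% of the summed level of the 10 genes in the Brpf1-null and 86.9% in the wild-type library. Cd34 per Cd48 was 2.40 in the Brpf1-null and 1.18 in the wild-type library, 2.04-fold higher. Ly6a encodes Sca-1, an antigen of the gate itself, and was at 9.51 RPKM in the Brpf1-null and 10.6 RPKM in the wild-type library, 1.11-fold lower (0.915 to 1.35), not detectable at this depth. Ly6 genes are close copies of each other, and how the authors' counting shared reads among them is not given, so the Ly6a level is uncertain. Kit, the other antigen of the gate, was at 21.3 RPKM in the Brpf1-null and 25.6 RPKM in the wild-type library, 1.20-fold lower (1.14 to 1.27). Prom1 encodes CD133, a protein of membrane protrusions, and was at 0.153 RPKM in the Brpf1-null and 0.284 RPKM in the wild-type library. With about 12 reads in the Brpf1-null and 24 reads in the wild-type library, it was 1.86-fold lower (0.904 to 4.13), again not detectable.

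The order of levels was nearly the same in both libraries. In the Brpf1-null library it ran Cd34, Cd48, Ly6a, Ly9, Esam, Procr, Tek, Cd244, Prom1, Slamf1, from high to low. In the wild-type library it ran Cd34, Cd48, Ly6a, Esam, Procr, Ly9, Tek, Cd244, Slamf1, Prom1. Ly9 was thus 4th in the Brpf1-null and 6th in the wild-type library, and Slamf1 and Prom1 changed places at the low end. Exact Poisson intervals of each level cover counting error only. By these, neighbours that could not be told apart in the Brpf1-null library were Esam and Procr, Tek and Cd244, and Prom1 and Slamf1. In the wild-type library they were Ly6a and Esam, Ly9 and Tek, Tek and Cd244, and Slamf1 and Prom1. With 1 library per genotype no gene can be ranked by likeness of pattern, since over 2 libraries all genes are fully alike or fully opposite.

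**Figure D3:**
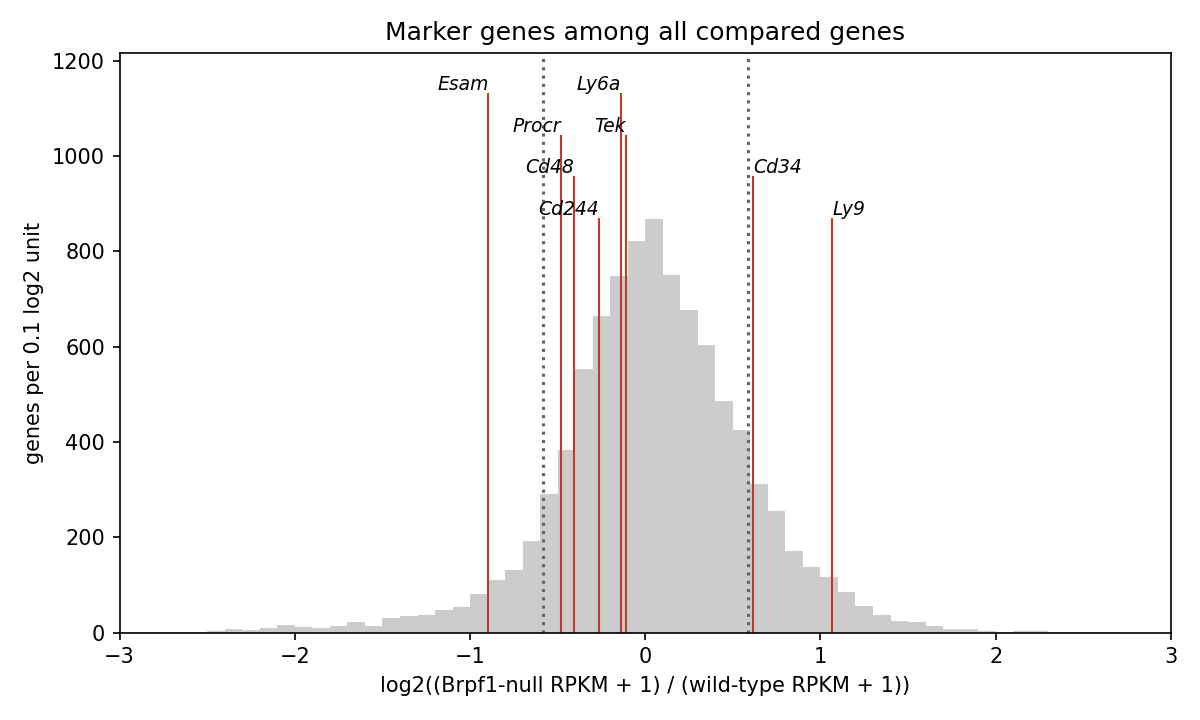
Number of genes per 0.1 log2 unit of change between the Brpf1-null and the wild-type library for the 9380 compared genes, with the 8 marker genes above the filter as labelled lines and 1.5-fold as dotted lines. Esam lies left of the dotted lines at −0.90, Cd34 (0.61) and Ly9 (1.07) lie right of them, and 6 genes lie beyond the axis.

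Counting intervals excluded 1 for 6 of the 8 marker genes above the filter, below 1 for Cd48, Cd244, Procr and Esam and above 1 for Ly9 and Cd34. Over the 9257 genes with a read estimate, 39.9% had an interval above 1 and 32.3% an interval below 1, so an interval that excludes 1 is common at this depth. Esam was at percentile 4.37 of the log2 changes of all 9380 genes and Ly9 at percentile 96.7, with Cd34 at 87 and Procr at 12.5.

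The SLAM receptor genes lie beside each other on chromosome 1, and 7 of them follow in the order Cd244, Ly9, Slamf7, Cd48, Slamf1, Cd84 and Slamf6. Of these 7, Ly9 was higher as a ratio in the Brpf1-null library, and the other 6 were lower, beside 45.9% lower among the 9380 compared genes. Slamf7 and Slamf1, among the lower ones, were under the filter, on about 0 and 2 Brpf1-null reads. Slamf6, a receptor of lymphoid cells, was at 1.53 RPKM in the Brpf1-null and 2.91 RPKM in the wild-type library, 1.90-fold lower (1.46 to 2.50). Cd84, a receptor of platelets and myeloid cells among others, was at 6.52 RPKM in the Brpf1-null and 7.95 RPKM in the wild-type library, 1.22-fold lower (1.08 to 1.38). Slamf7 was listed at 0 in the Brpf1-null and at 0.202 RPKM in the wild-type library. Of the genes that flank the cluster, F11r, Refbp2, Ncstn and Copa passed the filter and lay within 1.5-fold. Vangl2, under the filter, was at 0.836 RPKM in the Brpf1-null and 0.524 RPKM in the wild-type library, a ratio of 1.60 (1.17 to 2.19). Neighbours of Ly9 on both sides, Cd244 and Slamf7, were thus lower while Ly9 was higher.

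**Figure D4:**
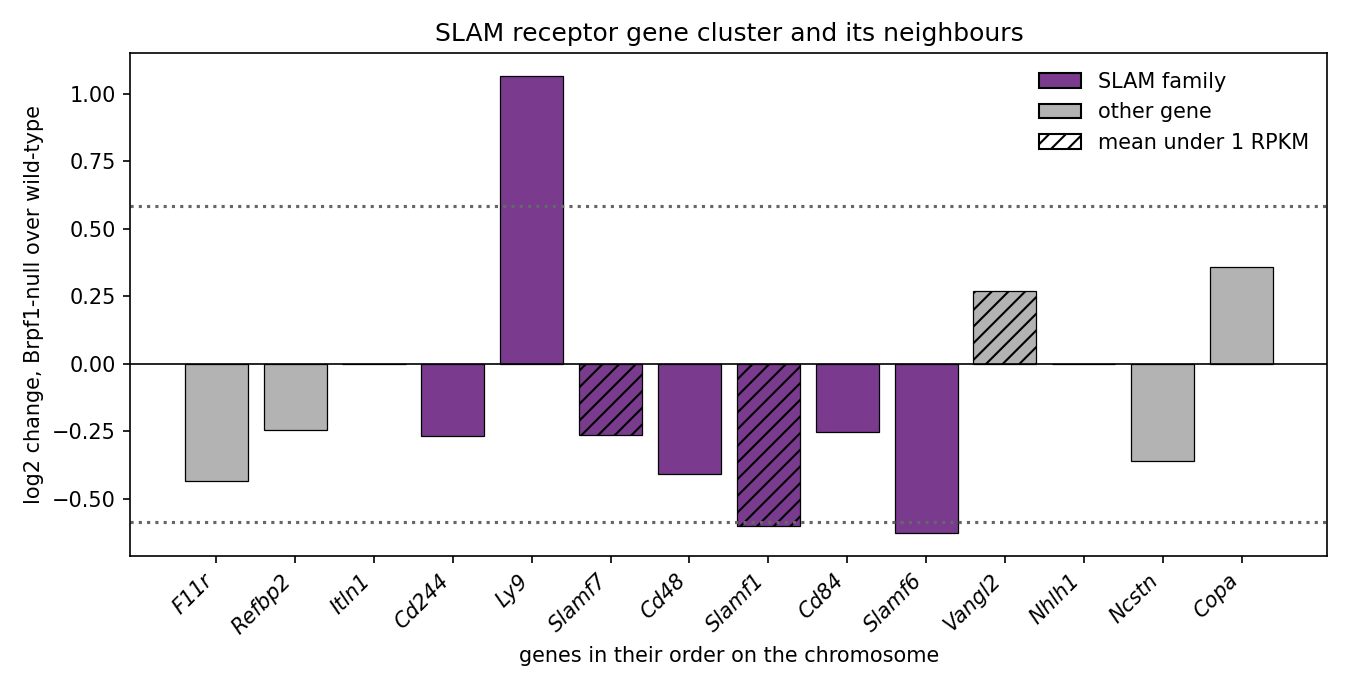
Log2 change (Brpf1-null over wild-type, 1 RPKM added) of the SLAM receptor genes, in purple, and flanking genes, in grey, in chromosomal order; hatching marks a mean under 1 RPKM and dotted lines mark 1.5-fold. Ly9 stands alone above the upper line at 1.07, and Slamf6 (−0.63) and Slamf1 (−0.60) reach the lower one.

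SLAM receptors signal through small adaptors of the SAP family and through kinases and phosphatases. Of 8 other SLAM receptor and adaptor genes, 3 passed the filter. Of these, 1 was higher, 1 lower and 1 within 1.5-fold, beside 14.1% higher and 9.42% lower over all genes. The higher one was Sh2d1b1, which encodes the adaptor EAT-2, at 3.42 RPKM in the Brpf1-null and 1.86 RPKM in the wild-type library, 1.84-fold higher (1.45 to 2.35). With 1 RPKM added it was no longer past 1.5-fold after centring or quantile normalization. The lower one was Slamf6, which was within 1.5-fold with the GC trend removed. Sh2d1a, which encodes SAP, was listed at 0 in the Brpf1-null and at 0.207 RPKM in the wild-type library. The receptor genes Slamf8 and Slamf9, under the filter and named after their values were seen, went opposite ways. In the Brpf1-null library Slamf8 was 4.6-fold higher (2.38 to 10.65). Slamf9 was 7.05-fold lower there (1.90 to 71.3), on about 2 Brpf1-null reads. Of 6 measured signalling partners, 1 was higher and 0 lower by 1.5-fold, beside 14.1% and 9.42% of all genes, with a median of 0.21. The higher one was Ptpn6, which encodes the phosphatase SHP-1, at 104.8 RPKM in the Brpf1-null and 59.8 RPKM in the wild-type library, 1.75-fold higher (1.67 to 1.83). Lyn, a SRC-family kinase gene, was at 16.9 RPKM in the Brpf1-null and 11.3 RPKM in the wild-type library. Ptpn11 (SHP-2) was at 3.66 RPKM in the Brpf1-null and 2.34 RPKM in the wild-type library, and Prkcq, a protein kinase C gene, at 3.31 RPKM in the Brpf1-null and 4.47 RPKM in the wild-type library.

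Among the ligands and partners of the other marker proteins, Angpt1 and F2r were lower and Tie1 was higher. In the angiopoietin and TIE pathway, 2 of 5 measured genes were lower and 1 was higher by 1.5-fold, beside 9.42% and 14.1% of all genes. Angpt1, the activating ligand of TIE2, was at 5.50 RPKM in the Brpf1-null and 11.8 RPKM in the wild-type library, 2.15-fold lower (1.93 to 2.38). Tie1, the co-receptor of TIE2, was at 8.70 RPKM in the Brpf1-null and 5.37 RPKM in the wild-type library, 1.62-fold higher (1.45 to 1.81), but within 1.5-fold after centring, quantile normalization or removal of the GC trend. Tek, given above, lay within 1.5-fold. Angptl4, a secreted relative of the angiopoietins, was at 9.84 RPKM in the Brpf1-null and 12.1 RPKM in the wild-type library.

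Around Procr, 7 of 10 genes of the protein C and thrombin pathway were measured, with a median of −0.34. Of these, 0 were higher, 2 lower and 5 within 1.5-fold, beside 14.1% higher and 9.42% lower over all genes. F2r, the thrombin receptor PAR1, was 2.22-fold lower (1.79 to 2.76), and F2, which encodes prothrombin of hepatocytes, 2.24-fold lower (1.72 to 2.92). Thbd, which encodes thrombomodulin, was at 2.15 RPKM in the Brpf1-null and 3.30 RPKM in the wild-type library, and F2rl2 at 1.10 RPKM in the Brpf1-null and 1.65 RPKM in the wild-type library. Selplg, Selp and Crkl, of the list of CD34 partners and relatives, lay within 1.5-fold, at log2 changes of −0.51, −0.33 and −0.05. The junction genes F11r and Jam3, relatives of Esam, were 1.45-fold (1.21 to 1.73) and 1.42-fold lower (1.16 to 1.73). Prom2, the relative of Prom1, was listed at 0 in both libraries.

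Of 4 measured Ly6-family genes beside Ly6a, 1 was higher and 2 were lower, against 14.1% and 9.42% of all genes. Ly6c2, a monocyte antigen gene, was 1.70-fold higher (1.20 to 2.45), but within 1.5-fold, with 1 RPKM added, after centring, quantile normalization or removal of the GC trend. Ly6d, a marker of B-lineage priming, was 5.87-fold lower (3.20 to 11.3) and Cd59a, an inhibitor of complement, 2.53-fold lower (2.22 to 2.89). Ly6e was the most abundant, at 214 RPKM in the Brpf1-null and 198 RPKM in the wild-type library.

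Of 18 measured surface genes used elsewhere to enrich stem cells, 3 were higher, 4 lower and 11 within 1.5-fold, with a median of −0.19, beside shares of 14.1% higher and 9.42% lower and a median of 0.04 over all genes. Art4, a blood group antigen gene, was 5.12-fold lower (3.91 to 6.78), and Abcg2, the transporter behind the dye-excluding side population, was 2.21-fold lower (2.05 to 2.38). Cd82, a tetraspanin gene, was 3.26-fold higher (2.89 to 3.70), and Itgam, which encodes the Mac-1 chain that fetal liver stem cells and myeloid cells share, was 2.28-fold higher (1.997 to 2.62). Cd93 and Cd81 were the other lower genes and Itga6 the other higher one, at log2 changes of −0.67, −0.74 and 0.75. Of 16 measured surface genes that subdivide multipotent progenitors, 3 were higher, 4 lower and 9 within 1.5-fold, with a median of 0.26, against the same shares and median over all genes. Flt3, the receptor of lymphoid-primed progenitors, was at 33.1 RPKM in the Brpf1-null and 22.9 RPKM in the wild-type library, 1.45-fold higher (1.37 to 1.54). Ccr9 and Il7r, genes of lymphoid progenitors, were 6.83-fold (5.66 to 8.37) and 4.61-fold lower (3.85 to 5.54), and Csf1r, a myeloid receptor gene, was 3.47-fold higher (3.19 to 3.77). Ly6d was also lower, and the other higher genes were Il6ra and Itgb7, at log2 changes of 1.10 and 1.24.

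Known regulators of stem cells and other genes restricted to them within LSK were lower or within 1.5-fold, with 1 exception. Of 17 measured, Procr among them, 7 were lower, 1 was higher and 9 lay within 1.5-fold. Over all genes, 9.42% were lower and 14.1% higher. The median of the list was −0.48, beside 0.04 over all genes. Ndn, a growth-restraining imprinted gene, was at 4.31 RPKM in the Brpf1-null and 10.3 RPKM in the wild-type library, 2.39-fold lower (2.11 to 2.71). Pdzk1ip1, which encodes a small membrane protein, was 2.40-fold lower (1.93 to 3.01). The exception was Sult1a1, a sulfotransferase gene, at 1.64 RPKM in the Brpf1-null and 0.679 RPKM in the wild-type library, and it was within 1.5-fold after centring. The transcription factor genes Mecom and Meis1 were 4.14-fold lower (3.31 to 5.17) and 2.60-fold lower (2.43 to 2.77) in turn. Fgd5, used as a stem cell reporter gene, was at 2.63 RPKM in the Brpf1-null and 1.45 RPKM in the wild-type library, and was picked out after its value was seen.

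**Figure D5:**
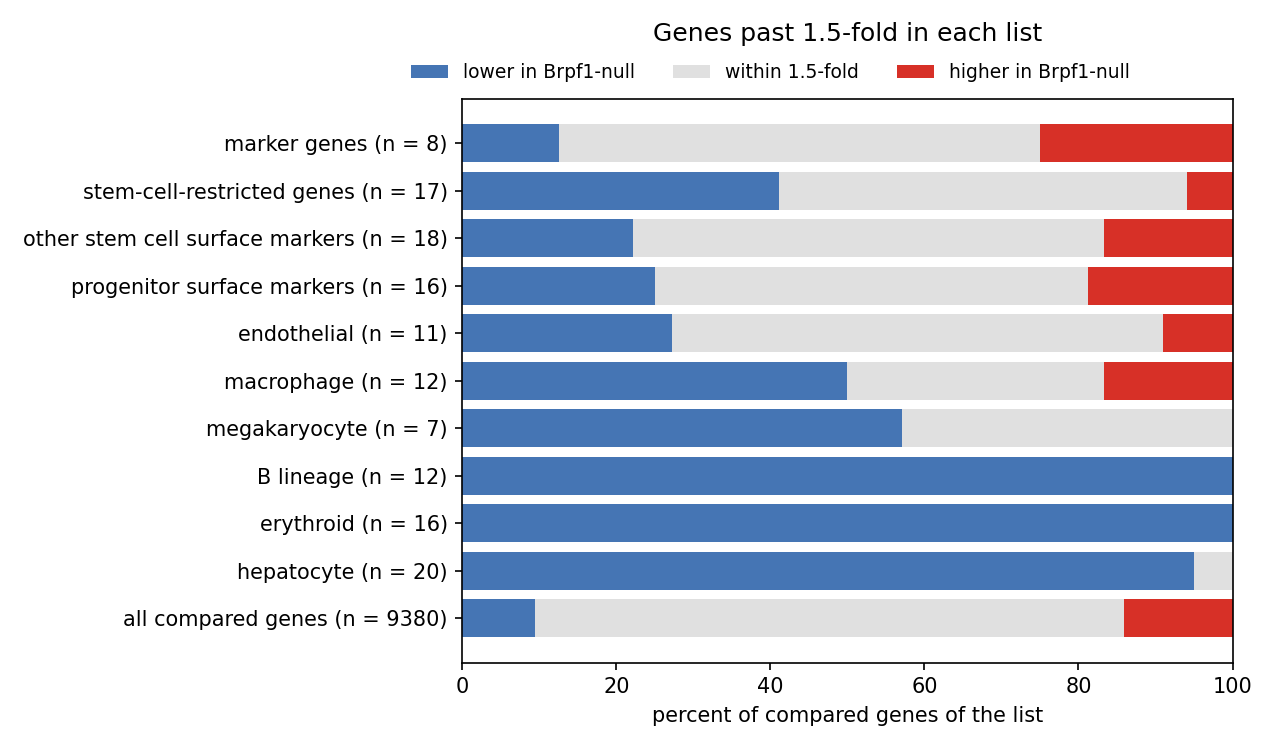
Percent of the compared genes of each list that were lower by 1.5-fold or more (blue), within 1.5-fold (grey) or higher by 1.5-fold or more (red), Brpf1-null against wild-type. All measured B-lineage and erythroid genes and 19 of 20 hepatocyte genes were lower, against 1 of 8 marker genes.

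Several of these markers are also made by other cells, whose own genes moved between the libraries. Over all genes, 14.1% were higher and 9.42% lower by 1.5-fold, the shares to set beside each list below. Esam, Tek, Procr and Cd34 are endothelial as well. Of 26 endothelial genes 11 passed the filter, with 1 higher, 3 lower and 7 within 1.5-fold, and the list summed to 172 RPKM in the Brpf1-null and 227 RPKM in the wild-type library. Of those, Mmrn1 was 2.63-fold lower (2.29 to 3.04), Emcn 2.33-fold lower (1.99 to 2.71) and Eltd1 1.94-fold lower (1.80 to 2.09). The defining endothelial genes Cdh5 (0.203 RPKM in the Brpf1-null, 0.583 RPKM in the wild-type library) and Kdr (0.330 RPKM in the Brpf1-null, 0.132 RPKM in the wild-type library) were near 0. Of the endothelial genes under the filter, intervals lay below 1 for Cdh5, Stab1, Stab2, Lyve1, Erg and Clec14a. They lay above 1 for Kdr, Flt4 and Sox7. Esam is also made by megakaryocytes, and among its lineage's genes, 7 of which were measured, 4 were lower and 0 higher, led by Ppbp (101-fold lower, 34.1 to 490.4, on 3 Brpf1-null reads), Pf4, Clec1b and Gp1ba. Itga2b, which encodes CD41 of megakaryocytes and is under the filter, was at 1.008 RPKM in the Brpf1-null and 0.234 RPKM in the wild-type library, 4.31-fold higher (2.58 to 7.54). The megakaryocyte list summed to 64.9 RPKM in the Brpf1-null and 129.5 RPKM in the wild-type library.

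Cd48, Cd244, Slamf1 and Ly9 are shared with lymphoid, mast and myeloid cells. All 12 measured B-lineage genes were lower, with sums of 87.6 RPKM in the Brpf1-null and 301 RPKM in the wild-type library. Cd79a, Vpreb3 and Vpreb1 were among those with the largest falls, and Pax5 was listed at 0 in both. Of 4 measured T and NK genes 2 were higher (Cd4 and Id2) and Lck and Nkg7 lay within 1.5-fold, while Cd3e, Ncr1, Gzmb, Tbx21 and Eomes were listed at 0 in both. Of 4 measured mast and basophil genes, Prss34 and Hdc were higher, Cpa3 was lower and Gata2 lay within 1.5-fold, with 6 genes listed at 0 in both, Fcer1a and Cma1 among them. Of 12 measured macrophage genes 2 were higher (Csf1r and Cd68) and 6 lower, among them Slc40a1, Vcam1 and Timd4, and the sums were 105 RPKM in the Brpf1-null and 102 RPKM in the wild-type library. All 16 measured erythroid genes were lower, Hbb-b1, Alas2 and Rhd among them, with sums of 423 RPKM in the Brpf1-null and 1697 RPKM in the wild-type library. So were 19 of 20 hepatocyte genes, led by Serpina1e, Serpina1a, Apoh and Fgg, with sums of 603 RPKM in the Brpf1-null and 2270 RPKM in the wild-type library. Among the antigens of the lineage gate, Cd3e was listed at 0 in both libraries and Cd8a was under 0.1 RPKM in both. The part of these other cells in the levels of the marker genes was not tested.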

How the data were processed

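RNA of sorted LSK cells was sequenced from oligo-dT-primed libraries, per the labels' protocols. Reads were aligned with TopHat to mm9, per the submitters' processing notes; the version, annotation and counting program are unstated there. The authors deposited RPKM for pair 1 and FPKM for pair 2, per the file headers, with a fold ratio and its log2 as deposited. The ratio ran wild-type over Brpf1-null and was not used. All 20207 symbols and values were the same in both tables (0 differed), so 1 library per genotype was used and the planned limma test and the replicate alternatives could not be run.

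Changes were log2((Brpf1-null + 1)/(wild-type + 1)), which understates low genes, for genes averaging 1 RPKM or more. Folds are ratios without the added unit. Library sizes were those at which low values became whole reads: 66.8% of 355 Brpf1-null and 65.5% of 357 wild-type values came within 0.1 read, against 30.8% and 33.1% at sizes raised by 5%. The ratio of sizes, 1.06, came from 1203 genes under 0.3 RPKM. Reads per gene used GENCODE M21 transcript lengths (98.1% of symbols matched) and are approximate. Fold intervals are exact Clopper-Pearson intervals of the share of reads. The scripts were tested on simulated data. The marker genes and the 20 other gene lists were chosen with earlier results of these data known. Named genes are all 10 markers, up to 4 per list (largest absolute change), and Brpf1, Kit and Flt3; genes outside this, such as Cdh5, Kdr, Itga2b, Cd68, Sult1a1, Fgd5, Cd81, Il6ra, the neighbours of the SLAM cluster and the genes listed at 0, were chosen after their values were seen. Some genes that this rule takes are left out of the text. Python 3.11.15, numpy 2.4.6, scipy 1.17.1 and pandas 2.3.3 were used.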

Additional observations from a re-analysis of the deposited data

How the results depend on the processing

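No paired analysis was possible because the tables of both pairs held the same values, and for the same reason no replicate could be left out. The number of marker genes higher by 1.5-fold or more was 2, but 1 after centring of each library on the median, 1 among genes averaging 5 RPKM or more and 1 at a 2-fold threshold. The number lower by as much was 1, but 2 after centring, 2 after quantile normalization, 2 with no filter and 0 at a 2-fold threshold. Centring took Cd34 to 0.50 and Procr to −0.59 on the log2 scale and shifted the median of all compared genes to −0.07. It also turned the split of all genes to 961 higher and 1204 lower, and the split was 1133 and 1032 after quantile normalization. No marker gene changed sign under the pseudocounts, centring, quantile normalization or GC correction tried. Slamf1 depended most on the pseudocount, at −2.32 with 0.1 and −0.15 with 5. The macrophage median was −0.67, but 0.0374 among genes averaging 5 RPKM or more. With a pseudocount of 5, the numbers of higher genes among other SLAM genes, the angiopoietin and TIE pathway, the Ly6 family and stem cell restricted genes were each 0, against 1 as reported; with 0.1 the last was 2. With 2 reads for Slamf1 and 12 for Prom1 in the Brpf1-null library, depth limits both.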
